A study of Drosophila melanogaster with 2 samples.

Results

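Of the 4099 Sequoia peaks on the chromosome arms, 873 (21.3%, exact 95% interval 20.1 to 22.6) had their summit deep inside an intron. A peak was placed in this class when its summit lay over 2000 bp from every annotated transcription start site (TSS), inside a gene body and outside the exons of every annotated transcript. Within that list, position alone chose the members, and neither signal nor sequence entered the choice. The peaks came from ChIP-seq of whole Drosophila melanogaster embryos collected from 0 to 24 h of development, in which the gene seq was expressed as a fusion to eGFP and bound DNA was pulled down through the GFP tag. There were 2 biological replicates of this 1 strain (labelled seq-GFP), each with its own biosample, and no second condition, tissue or age. The embryos were whole, so a peak may come from any cell type and any age in the collection, and how much fusion protein was made beside native Sequoia is not stated in the labels. The main list is the authors' conservative set, called between the replicates, and peaks were compared with other positions in the genome, not between treatments.

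Sequoia is a nuclear protein with zinc fingers, needed for normal growth and branching of axons and dendrites. In Drosophila many developmental genes carry long introns, and enhancers that set where and when such genes are transcribed often lie in these introns, far from the promoter. The first intron is a frequent home of such elements. Host gene here means a gene whose body holds the summit, and a summit in a host gene need not act on that gene.

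The strongest distal intronic summits differed in base composition and in the words they held. The sequence within 100 bp of the summit is shown for 4 of the strongest members, 5′ to 3′ on the plus strand of dm6, with RefSeq's Release 6 genome as the source. Capitals mark ACAGTG or GAGAGA on either strand, which read CACTGT and TCTCTC when they lie on the minus strand. The sequences are shown to let these strong sites be compared directly with the word-rich sites that follow.
Tlk, chrX:3742126-3742326: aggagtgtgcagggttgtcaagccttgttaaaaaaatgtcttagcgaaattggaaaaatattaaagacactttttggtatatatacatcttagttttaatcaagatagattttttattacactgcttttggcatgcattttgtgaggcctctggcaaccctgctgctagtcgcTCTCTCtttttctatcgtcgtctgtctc
CG32486, chr3L:3060699-3060899: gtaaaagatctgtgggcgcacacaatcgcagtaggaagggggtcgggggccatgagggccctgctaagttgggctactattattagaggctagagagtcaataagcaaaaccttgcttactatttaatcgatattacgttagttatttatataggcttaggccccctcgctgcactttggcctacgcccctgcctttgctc
simj, chr3L:10682879-10683079: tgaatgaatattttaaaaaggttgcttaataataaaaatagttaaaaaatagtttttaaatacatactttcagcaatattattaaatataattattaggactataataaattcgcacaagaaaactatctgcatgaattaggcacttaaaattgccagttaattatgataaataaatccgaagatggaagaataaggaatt
Raf, chrX:2297621-2297821: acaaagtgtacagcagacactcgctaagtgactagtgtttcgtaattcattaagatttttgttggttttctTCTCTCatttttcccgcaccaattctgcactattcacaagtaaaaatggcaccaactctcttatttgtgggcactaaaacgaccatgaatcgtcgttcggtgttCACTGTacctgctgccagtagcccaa
The GC content of these windows ran from 21.9% at simj to 48.8% at CG32486. The windows of simj and CG32486 held neither word, that of Tlk held 1 GAGAGA, and that of Raf held 1 of each.

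The word ACAGTG was the more widespread of the pair. Within 50 bp of the summit it lay in 70 members, against 51 for GAGAGA, and within 200 bp in 252 against 222. ACAGTG lay within 100 bp of the summit of 169 of the 873 members (19.4%, 16.8 to 22.1), against 7.28% of the 196651 windows of that length that tile the distal intronic sequence outside Y. At least 2 copies lay in 22 members (2.52%, 1.59 to 3.79), against 0.365% of the tiled windows. The word was chosen with earlier results of these data known, and this window after values were seen, so these shares are a description. Of these 22, 4 of the strongest are shown with each ACAGTG or CACTGT in capitals.
CG32264, chr3L:3785129-3785329: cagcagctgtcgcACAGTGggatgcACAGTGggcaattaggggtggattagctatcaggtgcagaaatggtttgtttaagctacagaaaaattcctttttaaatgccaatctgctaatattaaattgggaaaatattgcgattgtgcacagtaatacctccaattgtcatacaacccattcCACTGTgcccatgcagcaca
Eip63E, chr3L:3517914-3518114: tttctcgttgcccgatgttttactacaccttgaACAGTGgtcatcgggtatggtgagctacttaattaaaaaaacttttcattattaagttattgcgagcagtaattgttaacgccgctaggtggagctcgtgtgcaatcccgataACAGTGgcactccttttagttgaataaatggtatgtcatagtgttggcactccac
Hr4, chrX:1963836-1964036: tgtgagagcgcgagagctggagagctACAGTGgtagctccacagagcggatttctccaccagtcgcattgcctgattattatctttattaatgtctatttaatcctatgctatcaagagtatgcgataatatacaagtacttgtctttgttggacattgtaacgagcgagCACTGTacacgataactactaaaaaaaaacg
Snoo, chr2L:7925487-7925687: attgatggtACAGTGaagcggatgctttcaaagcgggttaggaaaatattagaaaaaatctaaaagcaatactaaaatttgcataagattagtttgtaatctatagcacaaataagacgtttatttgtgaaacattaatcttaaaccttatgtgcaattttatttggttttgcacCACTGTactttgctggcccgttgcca
The CG32264 window held 3 copies, and the Eip63E, Hr4 and Snoo windows held 2 each. In all 4 windows the copies flanked the centre, on both sides of an AT-rich stretch around the summit. Hr4 encodes a nuclear receptor of the ecdysone response and Snoo a cofactor in signalling by TGF-beta relatives.

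GAGAGA, the letters read by GAGA factor, occurred in long runs at a few members. Among the members on the arms shown, the 2 with most overlapping copies within 50 bp of the summit were in acj6, a POU homeobox gene of neurons, and in Raf, the gene of a kinase in receptor tyrosine kinase signalling, and GAGAGA is in capitals.
acj6, chrX:15356633-15356733: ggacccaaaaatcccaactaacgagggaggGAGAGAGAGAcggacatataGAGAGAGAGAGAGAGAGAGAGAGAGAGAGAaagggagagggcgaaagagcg
Raf, chrX:2302291-2302391: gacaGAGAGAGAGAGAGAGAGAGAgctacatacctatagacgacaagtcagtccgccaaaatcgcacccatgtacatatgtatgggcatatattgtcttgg
The acj6 window held 16 overlapping copies at a signal of 98.2, and the Raf window held 8 at a signal of 219. Only 51 of the 873 members had any GAGAGA within 50 bp.

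Over 2000 bp from a TSS, introns held more peaks per length than the gaps between genes. Distal intronic sequence carried 20.6 peaks per Mb (exact Poisson interval 19.3 to 22.03), and distal intergenic sequence carried 11.5 (10.4 to 12.8, from 362 peaks). Without Y, which held no peak of either class, the densities were 21.1 and 12.5 per Mb. Exons over 2000 bp from a TSS carried 2.78 peaks per Mb (36 peaks). All arms together carried 29.8 peaks per Mb, promoters included, and the distal intronic share of peaks (21.3%) stood below the distal intronic share of arm bases (30.8%). These intervals cover counting error only, and the lists give no read depth, so the depth behind a peak is unknown. All bases of each class were counted, with no filter for how well reads map, and the part of mapping in these densities was not tested.

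Beyond 5000 bp from a TSS, density was lower with distance in both settings. The bins by distance leave out Y. Between 2000 and 3000 bp from a TSS, introns held 29.97 peaks per Mb (25.5 to 34.99) and intergenic sequence 21.1 (16.7 to 26.4). Between 5000 and 10000 bp the densities were 24.1 (21.3 to 27.2) in introns and 13.7 (11.1 to 16.7) in intergenic sequence. Between 20000 and 50000 bp they were 11.8 (8.99 to 15.3) in introns and 2.75 (1.32 to 5.06) in intergenic sequence. The intervals of the classes were apart in the 5000 to 10000, the 10000 to 20000 and the 20000 to 50000 bp bins, and overlapped slightly in the 2000 to 3000 and 3000 to 5000 bp bins. No member lay over 50000 bp from a TSS, where 3.75 Mb of intronic sequence remained outside Y and 3 counts allow 0.800 peaks per Mb. The farthest member lay 49859 bp from a TSS, and the median distance was 5429 bp.

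First introns were the denser ones. A summit counted as first-intron when it lay in the first intron of at least 1 transcript, which held for 517 members (59.2%, 55.9 to 62.5), while first introns made up 37.2% of the distal intronic bases. First introns held 32.8 peaks per Mb (30.02 to 35.7), and the remaining intronic sequence held 13.4 (12.04 to 14.9). The order was the same in each of the 5 bins of TSS distance. Between 2000 and 3000 bp the densities were 40.6 in first introns and 17.2 in later ones, and between 20000 and 50000 bp they were 22.8 in first introns and 8.84 in later ones.

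**Figure D1:**
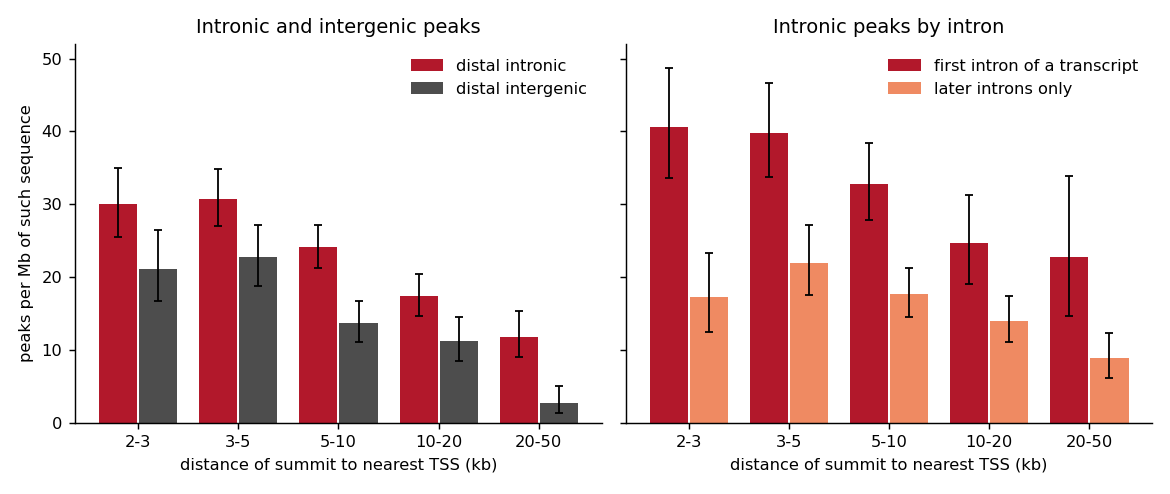
Peaks per Mb of sequence outside Y by distance of the summit from the nearest TSS. Left, distal intronic (red) and distal intergenic (grey) sequence; right, first introns (red) and later introns (orange); bars show the density of the conservative set and whiskers its exact 95% Poisson interval. The distal intronic bars run from 29.97 per Mb at 2000 to 3000 bp to 11.8 at 20000 to 50000 bp and stand above the intergenic bars in every bin.

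By arm, X carried 26.1 distal intronic peaks per Mb of such sequence (22.7 to 29.9) and 2L 24.6 (20.9 to 28.7). The value was 21.6 on 3L, 18.3 on 3R (15.9 to 20.9) and 17.2 on 2R (14.3 to 20.6). The interval of X met neither that of 2R nor that of 3R, and that of 2L did not meet that of 2R. These values leave out 25 ranked peaks absent from the conservative list, 19 of them on 3R, which are described at the end. Chromosome 4 held 1 member, in the zinc finger gene dati, at 2.25 per Mb (0.0569 to 12.5). Chromosome Y held none, where 3 counts allow 3.20 per Mb.

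Distal intronic peaks made up a smaller share of the strongest peaks than of all peaks. They were 6 of the 100 strongest (6%, 2.23 to 12.6) and 48 of the 500 strongest (9.60%, 7.16 to 12.5), against 21.3% of all, and 247 of the 1099 peaks ranked after 3000 (22.5%, 20.04 to 25.1). The authors' signal, which ranks peaks within a list, had a median of 111.8 for members (107.0 to 115.3), 99.1 for distal intergenic peaks (94.4 to 108.5), 112.8 for peaks over 500 and up to 2000 bp from a TSS, 128.7 for promoter peaks and 117.1 for all peaks. The median of members was 0.955 times that of all peaks (0.913 to 0.985). At the weak end, 59 members had a signal under 60, down to 2.36, and 52 of these overlapped a stronger conservative peak. In all, 121 members (13.9%) overlapped another peak of the same list, so some neighbouring summits are not separate sites, and counts of summits per gene are given with that in view.

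The strongest member, in CG12769 on 2R, reached a signal of 959, and the replicates gave 509 and 446. Tlk, which encodes Tousled-like kinase, followed with 766 (427 in replicate 1 and 336 in replicate 2), and CG32486 with 707 (346 and 353 in replicates 1 and 2). The next was a summit shared by Hr3, a nuclear receptor gene of the ecdysone response, and by CG12912 and CG46321, with a signal of 647. simj, which encodes a subunit of the NuRD chromatin remodelling complex, had 596, with 257 in replicate 1 and 337 in replicate 2. Raf had both 590 and 509, at separate summits of 1 intron. Gug, the gene of the corepressor Atrophin, had 487, Dys, the Drosophila dystrophin gene, 464, and sbb, which encodes a nuclear regulator with roles in axon targeting, 451.

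The remaining hosts among the 15 strongest were CG32264 (425), CG9328 (415), Mi-2 with Su(Tpl) (399), CG34417 (386) and Pits (377). Mi-2 is the ATPase of NuRD, the same complex as simj, and Su(Tpl) encodes an elongation factor of the ELL family. All 15 strongest members were in both replicates' own thresholded lists, and 12 of the 15 lay in a first intron. Their log2 ratios of replicate 1 to replicate 2 lay between -0.39 at simj and 0.52 at sbb.

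The 873 members lay in 496 host genes, 11.4% of the 4341 genes that have any distal intronic sequence. More than 1 member lay in 209 genes, 4.81% of the 4341, and 598 members (68.5%, 65.3 to 71.6) lay in such a gene. There were 287 hosts with 1 member, 105 with 2, 50 with 3 and 54 with 4 or more. Of the 4224 protein-coding genes with such sequence, 479 (11.3%) held 1 or more members and 201 (4.76%) held 2 or more. For 567 members (64.9%, 61.7 to 68.1) the nearest TSS belonged to a host, alone or shared with another gene, and for the rest it was that of other genes. Some summits have several hosts: 58 members lay in 2 or more overlapping genes, and 21 lay in no protein-coding gene.

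Hosts were more frequent among genes with more distal intronic sequence. Among genes with up to 1000 bp of it, 3 of 1875 (0.16%) were hosts. The share was 6.6% among genes with over 1000 and up to 5000 bp and 47.4% among genes with over 50000 bp. Per length the order differed, with 34.0 members per Mb in genes with over 5000 and up to 10000 bp and 12.7 in genes with over 50000 bp. The host share of a gene list is therefore given below with its density per Mb.

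sbb held the most members, 12, all in first introns and 11 of them with a signal of 60 or more. Their signals had a lowest value of 8.51, a median of 170 and a highest value of 451, and 10 of the 12 were in both replicates' own lists. A group of 5 neighbouring summits spanned 5656 bp, with signals from 126 to 451. kirre, which encodes an immunoglobulin-family receptor of myoblast fusion, held 11 with signals from 70.2 to 269, 1 of them in a first intron. The kirre summits fell into 1 at 46391 bp from the gene start and 10 between 267573 and 368674 bp. The lone one was the strongest (269), lay 2547 bp from the nearest TSS and was shared with the overlapping gene CG32795.

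Antp, a Hox gene of the thorax, held 9 members, spread from 7119 to 86709 bp from its annotated start. The strongest was the first, at 295 (replicate 1 gave 182, replicate 2 gave 109), and the rest ran from 90.6 to 203. Of the 9, 5 also lay in the overlapping gene CG46458. Raf held 8, of which 6 lay in 1 intron within 8838 bp, the stretch with the most members at gaps of 3000 bp or less. Those 6 had signals of 590, 160, 509, 219, 249 and 130 in order from the gene start, and all 6 were in both replicates' own lists. The other 2 Raf summits overlapped each other, with signals of 90.1 and 7.21, and were in neither.

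**Figure D2:**
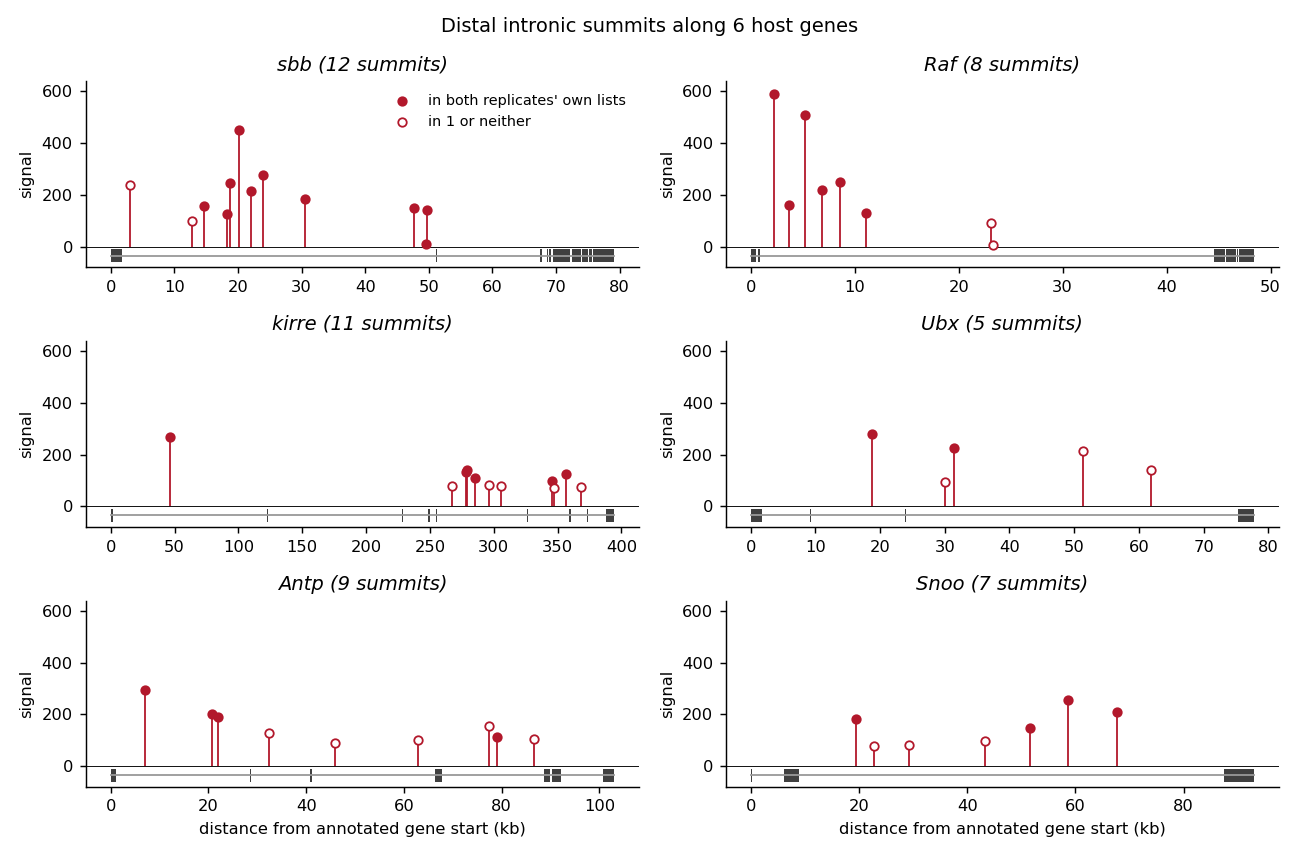
Signal of each distal intronic summit (vertical axis, authors' signal of the conservative set) against its distance in kb from the annotated start of 6 host genes; black boxes are exons of any transcript. Filled points were in both replicates' own thresholded lists and open points in 1 or neither; the 6 Raf summits nearest the gene start lie within 8838 bp, while those of Antp are spread from 7119 to 86709 bp.

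Of the other hosts with many members, lncRNA:iab8, a noncoding gene of the bithorax complex between abd-A and Abd-B, held 8 with signals from 73.5 to 323. All 6 members of MSAmiP were among these 8. lncRNA:CR44999 also held 8, of which 5 lay in CG12535 too and 2 in Myc, and 1 had a signal of 13.1. Snoo held 7 with signals from 76.0 to 255. ftz-f1, a nuclear receptor gene, held 7, of which 2 had signals under 60 and 4 were shared with lncRNA:CR45939. lncRNA:CR44357 held 7, 6 of them shared with CG1677. There were 6 each in lncRNA:CR32773, in ush, which encodes a cofactor of GATA factors, in Eip75B, an ecdysone-induced nuclear receptor gene, and in Zdhhc8, which encodes a palmitoyltransferase, and also in bun. Of the lncRNA:CR32773 members, 2 also lay in bi. With overlapping peaks reduced to the strongest, 496 genes were hosts and 188 held 2 or more.

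Besides those of Raf and sbb, the stretches with the most summits lay in Zdhhc8 (5 summits over 3526 bp), B4 (5 over 2375 bp) and Tlk (4 over 2422 bp). Each of these 3 held 1 overlapped summit with a signal under 60. Over all members, 128 stretches of 2 or more summits took up 293 members (33.6%), and 580 members stood alone. The median distance between a member and the next member was 8056 bp.

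Over the 15 gene lists with any distal intronic sequence, density ran from 79.9 members per Mb in Hox genes to 5.01 in ion channel, receptor and synapse genes. The lists were chosen with earlier results of these data known, so their order is a description. The host share and density of each list stand beside 11.4% and 20.6 per Mb over all genes with such sequence. All genes had a median of 1684 bp of it. Only the glial (932 bp) and Polycomb and Trithorax (601 bp) lists had a lower median, so the 11.4% is not matched for length. Hox genes, which give segments their identity, had members in 4 of 8 genes (50%, 15.7 to 84.3), against 11.4% of all genes with such sequence. They held 19 members, or 79.9 per Mb (48.1 to 125), against 20.6 per Mb over all. Besides the 9 of Antp, Ubx held 5 with signals from 94.2 to 278, abd-A held 3 with a highest signal of 329 and Abd-B held 2, with 122 and 365. Of the abd-A summits, those with 229 and 14.1 overlapped each other. lab, pb, Dfd and Scr held none.

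Nuclear receptor and ecdysone response genes held 23 members in 5 of 17 genes, or 56.3 per Mb (35.7 to 84.5), with all 5 hosts holding several. These were ftz-f1 (7), Eip75B (6), Hr4 (5), Eip74EF (3) and Hr3 (2). Hr4 had its strongest summit at 308 and Hr3 at 647. Segmentation genes, which divide the early embryo, held 8 members in 6 of 13 genes, or 65.2 per Mb (28.2 to 128), led by inv (2, highest signal 231), oc (2, 196) and nkd (1, 154).

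Genes of the Wnt, Hedgehog and Dpp pathways held 28 members in 13 of 31 genes, or 54.3 per Mb (36.1 to 78.5). shn, which encodes a zinc finger effector of Dpp signalling, held 5 with a highest signal of 237, the Frizzled receptor gene fz held 4 with 261, and sog, which encodes a Dpp antagonist, held 3 with 193. Genes of receptor tyrosine kinase pathways held 16 in 9 of 22 genes, or 50.6 per Mb (28.9 to 82.2). Examples were Pvf3, a ligand gene (3, highest 179), jeb, the ligand gene of Alk (3, 170), and aos, which encodes an inhibitor of the EGF receptor (2, 319). Raf was not on that list.

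Mesoderm and muscle genes held 19 members in 7 of 28 genes, or 30.5 per Mb (18.4 to 47.6), of which 11 were those of kirre, with 2 each in Mef2, the muscle regulator (highest 228), and Msp300. Neuronal homeobox and identity factor genes held 21 in 11 of 40 genes, or 29.5 per Mb (18.3 to 45.1), led by hth (5, highest 219), pdm2 (3, 141) and ct (3, 139). Axon and dendrite guidance genes, the class nearest to the known role of Sequoia, held 32 members in 16 of 40 genes (40%, 24.9 to 56.7). Their density of 22.5 per Mb (15.4 to 31.8) had an interval that included the 20.6 of all genes. The intervals of the mesoderm and muscle list and of the neuronal homeobox list included it too. Sema1a, a semaphorin gene, held 5 (highest 212), Nrg, the neuroglian adhesion gene, held 5 (115.5) and fra, the Netrin receptor gene, held 4 (139).

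The BTB and psq domain regulators had members in 9 of 16 genes, 1 each, or 17.0 per Mb (7.77 to 32.2), with the strongest in mamo (251), ken (246) and rib (173). RNA-binding regulators had members in 13 of 21 genes, or 16.1 per Mb (10.1 to 24.4), led by shep (4, highest 162), brat (4, 117) and Rbfox1 (2, 186). The Notch pathway had 5 members in mam (3, highest 314) and N (2, 240), 2 of 12 genes, or 23.5 per Mb (7.65 to 54.9), an interval that includes the 20.6 of all genes. Glial genes had 3 members in 2 of 10 genes (pnt and nrv2), or 57.8 per Mb (11.9 to 169). Polycomb and Trithorax genes had 3 in 3 of 21 genes (Psc, trx and osa), or 55.8 per Mb (11.5 to 163), so the densities of both rest on few summits. The BTB, RNA-binding, glial and Polycomb intervals also included the 20.6 of all genes.

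Adhesion and immunoglobulin superfamily genes held 21 members in 8 of 71 genes, or 9.45 per Mb (5.85 to 14.4), and 11 of the 21 were in kirre. The other hosts were mew, an integrin gene (4, highest 135), and 6 genes with 1 each, led by CadN (118). Ion channel, receptor and synapse genes held 8 members in 6 of 66 genes (9.09%, 3.41 to 18.7), or 5.01 per Mb (2.16 to 9.87), led by dnc (2, highest 199.7), rg (2, 132) and dlg1 (1, 134). Both intervals lay below the 20.6 of all genes. Density also differed with gene size, and the 12.7 per Mb of all genes with over 50000 bp of such sequence lay inside the interval of the adhesion list and above that of the ion channel list. The part of gene size in either value was not tested. None of the 88 cytoplasmic ribosomal protein genes had any distal intronic sequence, so they could hold no member.

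**Figure D3:**
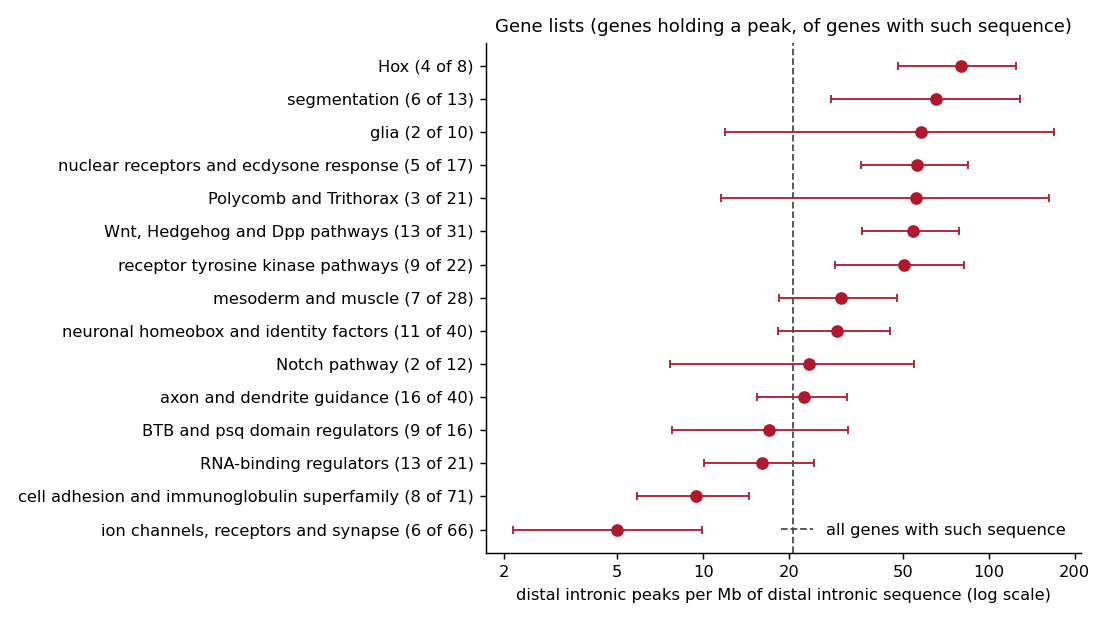
Distal intronic peaks per Mb of distal intronic sequence (log scale) in 15 gene lists, with exact 95% Poisson intervals; the dashed line is the density over all genes with such sequence, and brackets give the genes holding a peak of those with such sequence. Hox genes are at 79.9 per Mb and ion channel, receptor and synapse genes at 5.01, on opposite sides of the line at 20.6.

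Promoter peaks were found in hosts and in other genes at different shares. A summit within 500 bp of a TSS lay in 184 of the 496 hosts (37.1%, 32.8 to 41.5), against 693 of the 3845 genes with distal intronic sequence and no member (18.0%, 16.8 to 19.3). Among genes with up to 5000 bp of such sequence the shares were 39.1% of hosts and 17.9% of the others. Among genes with over 20000 bp they were 34.98% of hosts (29.0 to 41.3) and 15.5% of the others (11.9 to 19.7). This count was chosen after seeing the data.

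seq itself held no member. Kdm4B on 2R, which encodes a histone demethylase and shares an annotated start with seq, held 2 members in an intron. The stronger, with 186 (74.8 in replicate 1, 116 in replicate 2), lay 2318 bp from the nearest TSS, a position annotated as a start of seq, of Kdm4B itself and of CG17724. The other had 105 (90.1 in replicate 1, 55.3 in replicate 2), and its nearest TSS was that of Kdm4B at 4010 bp. Both were in both replicates' own lists.

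The edge of the class was set by the 2000 bp limit. Just inside it were members in lncRNA:CR44320 at 2013 bp from a TSS (signal 218), in msn at 2014 bp (188) and in fra at 2019 bp (92.5). Just outside were intronic peaks in CG9171 at 2000 bp (133), in pnt at 1992 bp (158) and in Cph at 1991 bp (87.6).

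Replicate 1 found more of the members than replicate 2. Its own thresholded list overlapped 68.6% of members (65.4 to 71.7), against 73.6% of all conservative peaks, and that of replicate 2 overlapped 56.6% (53.2 to 59.9), against 59.7%. Both lists overlapped 45.5% of members and neither overlapped 20.3%, while 92.4% were in the pooled list. The lists differ in length, with 4069 peaks in replicate 1 and 2680 in replicate 2. Of distal intergenic peaks, 60.5% were in the list of replicate 1 and 50.8% in that of replicate 2, and of promoter peaks 80.1% and 64.2%. For the 870 members with a ranked peak in both replicates, the median log2 ratio of replicate 1 to replicate 2 signal was 0.20 (0.15 to 0.24).

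The Hox members stood apart from that ratio. The median log2 ratio of the 19 members in Antp, Ubx, abd-A and Abd-B was 1.16, against 0.20 over all members, and 17 of the 19 lay above the median of all. A log2 ratio above 1 was found in 12 of the 19, against 89 of the 870. In signal, their median was 127 in replicate 1 and 53.3 in replicate 2. Overlapping abd-A summits with signals of 229 and 14.1 both took replicate values of 160 and 71.5, so 1 site entered these values more than once. In Ubx the 5 members had 196, 48.5, 150, 164 and 107 in replicate 1, against 80.8, 48.5, 85.2, 53.3 and 34.2 in replicate 2. In Antp 8 of the 9 had the higher signal in replicate 1, with ratios from -0.31 to 1.82.

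Of the Hox members 17 were in the list of replicate 1 and 11 in that of replicate 2. Outside the Hox genes, all 8 members of lncRNA:iab8 had ratios above 0, with a median of 0.82, and the 6 of lncRNA:CR32773 had a median of 1.27. atos held 5 members with a median of 1.06. The medians were -0.03 in kirre, 0.12 in Raf, -0.28 in bun and -0.41 in Drak. Among the other lists with 8 or more members, the next highest medians were 0.65 in segmentation genes, 0.47 in ion channel, receptor and synapse genes and 0.46 in neuronal homeobox and identity factors. The labels give no difference in handling between the replicates, the ratio was chosen for description after seeing the data, and what moved with it was not tested.

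**Figure D4:**
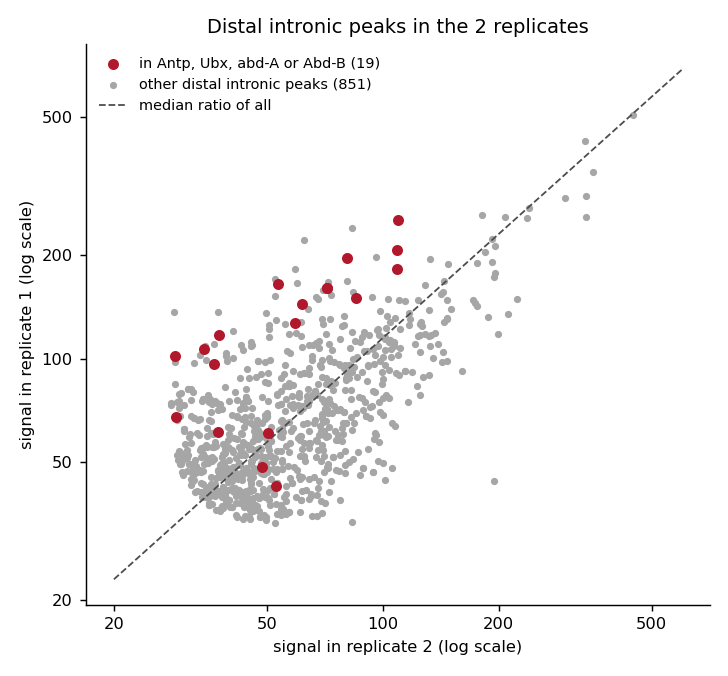
Signal of each distal intronic peak in replicate 1 (vertical) against replicate 2 (horizontal), both on log axes; red points are the 19 members in Hox genes, grey points the 851 others with a value in both, and the dashed line is the median ratio of all. Of the red points, 17 lie above the line.

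The members' sequence was AT-rich at the summit. Within 50 bp of the summit their median GC content was 34.7% (33.7 to 35.6), against 40.6% in 398076 windows of the same length that tile the same kind of sequence. GC content was under 25% in 13.3% of members and in 5.14% of tiled windows. Away from the summit it changed in both directions. It was 36.3% within 50 bp on either side, reached 44.5% at 150 to 200 bp on the left side of the plus strand and 43.99% on the right side, and was back near the 40.04% of all distal intronic sequence at 600 bp. Distal intergenic summits had the same dip, to 38.1%, with shoulders up to 45.4%. Promoter summits also dipped to 38.1%, against 43.5% at 100 to 150 bp on the right side.

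ACAGTG was among the words of 6 bases most over-represented at members, with reverse complements merged. Words were ranked on 2L, 2R and X, and values for 3L, 3R and 4 are given beside them. ACTGTA led with a share 2.31 times that of tiled windows (1.85 times on the other arms), followed by ACAGTG with 2.15 (2.27) and ACCCCC with 2.06 (2.13). ACTGTA read on the other strand is TACAGT, so the first 2 words overlap in TACAGTG. That word of 7, chosen after seeing the ranking, lay in 3.55% of members (2.43 to 5.003) and 0.843% of tiled windows, a ratio of 4.21. It also lay in 2.49% of distal intergenic peaks (1.14 to 4.67) and 2.02% of promoter peaks (1.43 to 2.78). Within 200 bp of the summit it lay in 12.03% of members (9.94 to 14.4) and 3.40% of tiled windows. The shares there were 8.84% of distal intergenic peaks (6.1 to 12.2) and 9.30% of promoter peaks (8.01 to 10.7).

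Within 200 bp, ACAGTG lay in 28.9% of members (25.9 to 31.997), 26.2% (21.8 to 31.1) of distal intergenic peaks, 29.6% (27.5 to 31.7) of promoter peaks and 13.998% of intronic windows. The intervals of the 3 classes of peak overlapped. The word was more frequent beside the summit than on it, with 1.56 copies per kb at 50 to 100 bp to the left (68 copies) and 1.31 at 50 to 100 bp to the right (57 copies). Within 50 bp of the summit it had 0.756 per kb on the left (33 copies) and 0.916 on the right (40 copies), and over all distal intronic sequence 0.385. The other classes had such shoulders too. Promoter peaks had 1.32 (left) and 1.09 (right) per kb at 50 to 100 bp, against 0.788 and 0.733 within 50 bp. Distal intergenic peaks had 0.884 and 1.60, against 0.718 and 0.552. By signal, ACAGTG lay within 50 bp of 6.87% of the 291 strongest members, 8.59% of the next 291 and 8.59% of the 291 weakest.

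**Figure D5:**
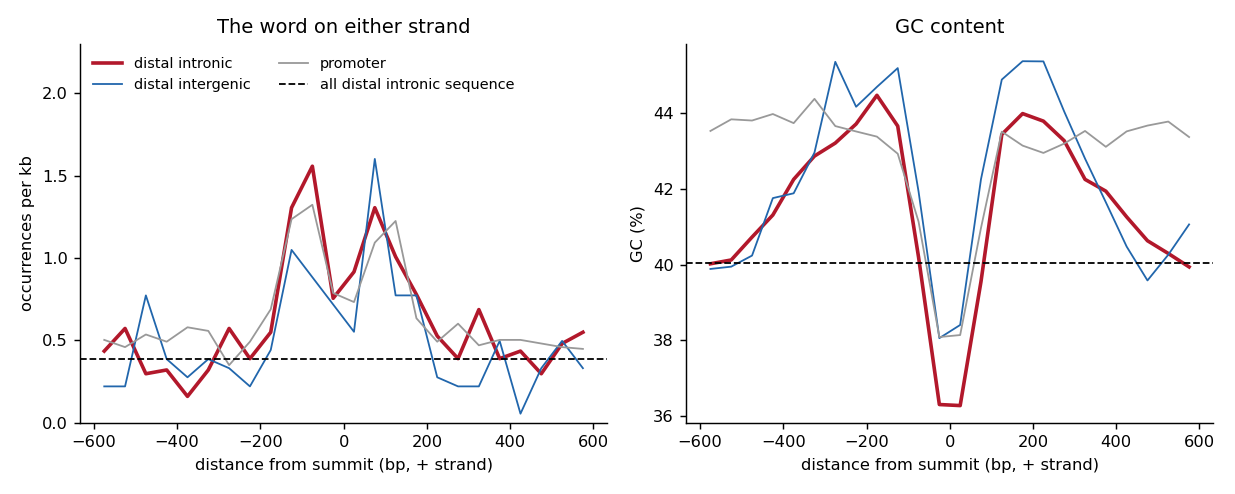
Left, copies of the word ACAGTG (either strand) per kb in bins of 50 bp around the summit; right, GC content in percent in the same bins, for distal intronic (red), distal intergenic (blue) and promoter (grey) peaks. The dashed lines are the values of all distal intronic sequence, 0.385 copies per kb and 40.04%. The red line has 2 shoulders of copies beside the summit and a GC dip at it, and so have the blue and grey lines.

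GAGAGA lay within 50 bp of the summit of 51 members (5.84%, 4.38 to 7.61), against 3.81% of tiled windows, 8.01% of distal intergenic peaks and 8.10% of promoter peaks. Within 200 bp the shares were 25.4% of members (22.6 to 28.5) and 14.3% of windows. The shares within 50 bp differed by base composition, with 2.37% of members and 2.51% of windows below 35% GC, and 10.8% of members and 4.55% of windows at 50% GC or more. TGTTTAC, a Fox-type motif, lay in 4.35% of members (3.10 to 5.93) and 2.02% of windows, and TGANTCA, an AP-1 motif, in 3.55% (2.43 to 5.003) and 2.07%. AGATAA, read by GATA factors, lay in 8.59% of members (6.82 to 10.7) and 5.98% of windows.

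The E-box CAGGTG, read by Snail factors, lay in 2.52% of members (1.59 to 3.79) and 2.96% of windows, and the proneural E-box CAGCTG in 2.86% (1.86 to 4.20) and 3.53%. CACACA lay in 10.5% of members (8.58 to 12.8) and 9.37% of windows. The DNA replication-related element TATCGATA lay in 1 member (0.115%, 0.00290 to 0.637), 0.552% of distal intergenic peaks, 1.15% of promoter peaks and 0.218% of intronic windows. Among the rest of the 18 motifs, TATAAA lay in 18.7% of members (16.1 to 21.4) and 12.9% of windows, and the homeobox core TAATTA in 9.39% (7.54 to 11.5) and 7.45%. The general E-box CANNTG, the STAT motif TTCNNNGAA, the Grainyhead motif AACCNGTT and the Zelda motif CAGGTAG had ratios of members to windows from 0.937 to 1.58. The ratio was 0.523 for the Su(H) motif GTGGGAA on 6 members, 0.422 for the Tramtrack motif AGGATAA on 4 and 0.285 for the ETS motif CCGGAAG on 1. Within 200 bp some of these shares stood differently. AGATAA lay in 21.5% of members and 21.6% of windows there, TATAAA in 42.2% and 41.1%, CAGCTG in 16.5% (14.1 to 19.1) and 13.7%, and CACACA in 43.2% (39.9 to 46.5) and 31.5%. Motif shares are within 50 bp of the summit unless stated. All motifs were sought on both strands, and a match or its absence in a window says nothing by itself about a factor.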

How the data were processed

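Chromatin from 2 biological replicates of seq-eGFP embryos was sonicated and precipitated with anti-GFP, per the labels. The authors deposited thresholded and ranked peak lists on dm6 for each replicate, for pooled replicates and between replicates (conservative). Which aligner and peak caller were used is not stated in the labels or file headers, and the control library was not analysed here. Signal is the authors' deposited value per peak, made with a control, and was used to rank and describe peaks within a list. The summit is the start plus the authors' deposited offset, another column of the lists. The ranked lists give the irreproducible discovery rate (IDR) as −log10, per the deposited values, capped at 5. Each replicate's signal at a member came from that replicate's own ranked list, using the overlapping peak with the nearest summit. Replicate signals have no stated common scale, so their ratios are read only against those of other members. Another 8 columns of each ranked list, whose sample could not be named, were not used.

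Positions were set against Ensembl BDGP6.54, release 115, without transposable elements, and sequence came from RefSeq's Release 6 genome. The 7 arms were used, which left out 1 conservative peak. Overlap needed 1 bp. Intervals are exact 95% intervals (Clopper-Pearson for shares, Poisson for densities, order statistics for medians). Peaks are not replicates, 1 group allows no test between conditions, and none was made. The position rule was tested on simulated positions. Tools were Python 3.11.15, numpy 2.4.6, scipy 1.17.1, pandas 2.3.3 and matplotlib 3.10.9.

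The members, the lists and the motifs were chosen with earlier results of these data known. Genes are named as hosts of the 15 strongest members, as the 15 hosts with most members (ties by strongest member), as up to 3 hosts with most members in each list, at the 5 stretches with most summits and at the 2000 bp limit, with seq and Kdm4B. Further hosts (bun, atos and Drak), the other Hox hosts, Eip74EF and the hosts of printed sequences were named after their values were seen, as were replicate ratios, promoter peaks of hosts, TACAGTG, windows of 100 bp either side for ACAGTG, profiles around summits and first introns by distance. Listed h, Dl, nct and calypso were matched through current names after results were seen.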

Additional observations from a re-analysis of the deposited data

Results flagged for a closer look

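In the ranked list made between the replicates, 25 distal intronic peaks passed the same IDR limit as the conservative peaks but were absent from the conservative list, so their signal is outside the measurements above. They lay in 13 genes, and 19 of the 25 were on 3R. Their signals ran from 32.6 to 513 with a median of 132, and the strongest were in trx (513), a Trithorax group gene, and tara (492). tara held 7 of the 25 and Kdm2 3, and 5 of the 13 genes were hosts in the main list too. With the 25 put back there were 898 members in 504 host genes, of which 215 held 2 or more.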

How the results depend on the processing

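Without replicate 1, in the own list of replicate 2, there were 574 members (21.5% of peaks, 13.6 per Mb) and 115 genes with several. Without replicate 2, in that of replicate 1, there were 796 (19.6%, 18.8 per Mb) and 193 genes with several, and 52.01% of the members were in the list of replicate 2. In the pooled list density was 27.2 per Mb, and 60.6% and 46.6% of members were in the lists of replicates 1 and 2. At an IDR of 0.001 or less there were 363 members (18.8% of peaks, 8.57 per Mb) in 271 genes, 70 with several, 96.4% and 92.6% were in the lists of replicates 1 and 2, and 64.7% lay in first introns. Beyond 1000 bp from a TSS the class took 29.8% of peaks at 24.8 per Mb, with 64.8% in first introns. Beyond 5000 bp it had 474 members (11.6%, 16.2 per Mb) in 294 genes, 111 with several, with 51.9% in the list of replicate 2 and 52.1% in first introns. At an overlap of 50% of the member the share in the list of replicate 1 was 64.0%. GAGAGA lay within 200 bp of the summit in 25.4% of members. Density was 19.3 per Mb with overlapping peaks merged and 19.2 at a signal of 60 or more, both added after seeing the data, as were putting ranked peaks back and leaving out Y. The other 71 of 102 alternative values stayed within 1.5 times the count or within the interval reported, and the cause of the shifts was not tested. Of the 496 host genes, 402 (81.0%) were hosts in the list of replicate 1 and 355 (71.6%) in that of replicate 2. No paired analysis was possible because there is 1 group. Unknown read depth and unseparated cell types limit what the absence of a peak in a gene shows.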
